A study of Homo sapiens with 4 samples.

Results

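Expression is described here for 43 genes of the cornified envelope and the S100 family in OE33 cells, a human line derived from oesophageal adenocarcinoma, after knockdown of ARID1A, which helps the BAF form of the SWI/SNF remodeller bind DNA. The 43 symbols came from a list of squamous differentiation genes other than keratins and desmosome genes. All 43 had a probe set paired with them alone, out of 18132 genes with such a probe set. Each gene is represented by its main probe set, the one with the highest mean over the arrays. The series compared 2 cultures given the ON-TARGETplus SMARTpool ARID1A with 2 given the ON-TARGETplus Non-targeting Pool, named mock in the labels, and described the replicates as biological. Each reagent is a pool of siRNAs, and a single line was used. Both groups grew in 15% serum, received siRNA at 50 nM with a lipofectamin reagent 24 hours after plating and were harvested 48 hours later, and no group of untransfected cells was analysed here. Total RNA was measured on 4 Affymetrix Human PrimeView arrays, 1 for each culture, whose number limits the precision of every value.

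The cornified envelope is the tough protein shell that squamous keratinocytes build beneath their membrane at the end of differentiation. Scaffold proteins such as involucrin and the plakins are laid down first, and small proline-rich proteins, loricrin and filaggrin are then joined to them by transglutaminases. Protease inhibitors and kallikreins hold and cut the links between the cells, and S100 proteins are small calcium-binding proteins, many of them encoded beside the envelope genes in the epidermal differentiation complex. In the oesophagus many of the envelope genes mark the squamous lining, while several genes of the set, such as CSTB and S100P, are also made by other epithelia.

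Of the whole series, the following touches the values below. ARID1A read 7.53 and 7.53 after knockdown against 9.28 and 9.33 in mock cells (log2 levels, main probe set). Its fall of 3.43-fold there passed limma's test (adjusted p = 0.0218). Other ARID1A probe sets had log2 changes of -1.61, -1.39, -1.37, -0.36 and 0.11. Those at -0.36 and 0.11 did not pass (adjusted p = 0.213 and 0.678 by limma), and the latter lay in the lowest 30% of probe sets by level. Array medians ran from 5.89 to 5.93. The epithelial markers EPCAM, KRT8, KRT18, KRT19, CDH1 and CLDN4 had a mean log2 level of 13.2 in each array. The squamous keratins KRT5, KRT14 and KRT4 lay between 5.64 and 6.99, and KRT13 between 9.16 and 9.50. KRT10 was as bright, between 9.42 and 9.63. Among 7 squamous markers measured, 4 log2 changes were positive and 3 negative, and none passed the test. The groups did not overlap for KRT13 (0.26), DSG3 (0.06, dim), KRT10 (-0.14) and KRT1 (-0.28), where 49.4% of all genes had such groups. They overlapped for KRT5 (0.14), KRT14 (0.06) and KRT4 (-0.03). Of 7 fibroblast markers 4 were dim (in the lowest 30% of probe sets by level), and the changes of the 7, 2 positive and 5 negative, ran from -0.44 (DCN, adjusted p = 0.0934) to 0.27 (THY1), with a median of -0.08. Of 6 lymphoid markers all had negative changes, from -0.32 (CD79A) to -0.04 (MS4A1), and none passed; the part of these in the results was not tested. As a sign of RNA integrity, beta-actin signal at the 3′ end exceeded that at the 5′ end by 1.21 and 1.10 (log2) in knockdown cells and by 1.04 and 0.995 in mock cells. This excess was larger in both knockdown arrays, and its part in the differences below was not tested. For GAPDH it was 0.199 to 0.215 in all 4 arrays.

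The promoters of the genes that the results turn on are shown first. Each line is the RefSeq window of GRCh38.p14 from 250 bases before to 50 bases after the start of the gene, read 5′ to 3′ on the strand of the gene. Capitals mark matches to an AP-1 motif (TGANTCA), a GRHL motif (AACCNGTT), a TFAP2 motif (GCCNNNGGC) and a KLF motif (CCNCACCC), each searched on both strands, and to a TATA box (TATAAA), searched on the strand of the gene. S100A4, S100P and SPRR3 are shown for the largest differences among the 43 genes, IVL and SPRR1B as envelope genes with AP-1 letters, and KLK6 as the kallikrein with the largest difference. The windows lie at chr1:153545757-153546056 (- strand), chr4:6693628-6693927 (+ strand), chr1:153001499-153001798 (+ strand), chr1:152908296-152908595 (+ strand), chr1:153030953-153031252 (+ strand) and chr19:50969542-50969841 (- strand).
S100A4: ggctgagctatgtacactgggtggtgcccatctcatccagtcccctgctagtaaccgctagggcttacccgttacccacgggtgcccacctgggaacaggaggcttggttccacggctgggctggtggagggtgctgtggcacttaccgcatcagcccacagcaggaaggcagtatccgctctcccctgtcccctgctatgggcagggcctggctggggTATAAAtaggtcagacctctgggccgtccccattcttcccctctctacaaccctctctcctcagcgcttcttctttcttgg
S100P: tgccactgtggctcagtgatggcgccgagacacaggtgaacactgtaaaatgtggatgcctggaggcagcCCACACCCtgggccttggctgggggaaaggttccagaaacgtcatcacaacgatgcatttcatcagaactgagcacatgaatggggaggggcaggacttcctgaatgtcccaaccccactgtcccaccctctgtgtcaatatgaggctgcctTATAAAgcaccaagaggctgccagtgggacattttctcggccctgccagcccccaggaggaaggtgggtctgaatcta
SPRR3: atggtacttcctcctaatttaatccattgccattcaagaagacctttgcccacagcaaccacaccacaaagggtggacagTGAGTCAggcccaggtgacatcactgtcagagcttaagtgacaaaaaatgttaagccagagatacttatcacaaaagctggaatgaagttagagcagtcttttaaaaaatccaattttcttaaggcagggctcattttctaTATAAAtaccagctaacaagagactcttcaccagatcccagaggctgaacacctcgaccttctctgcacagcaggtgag
IVL: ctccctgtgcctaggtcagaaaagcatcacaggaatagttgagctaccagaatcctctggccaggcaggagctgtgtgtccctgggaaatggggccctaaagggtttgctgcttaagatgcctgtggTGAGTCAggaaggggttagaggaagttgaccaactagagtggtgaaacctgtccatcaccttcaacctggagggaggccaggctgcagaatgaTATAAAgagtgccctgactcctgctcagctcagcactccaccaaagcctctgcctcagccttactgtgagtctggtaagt
SPRR1B: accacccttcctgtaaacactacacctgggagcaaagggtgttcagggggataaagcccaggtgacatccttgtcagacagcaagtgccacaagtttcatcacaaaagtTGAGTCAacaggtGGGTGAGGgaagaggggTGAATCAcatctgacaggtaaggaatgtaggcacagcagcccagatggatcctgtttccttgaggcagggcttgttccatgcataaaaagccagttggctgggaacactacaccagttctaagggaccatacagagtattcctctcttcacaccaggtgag
KLK6: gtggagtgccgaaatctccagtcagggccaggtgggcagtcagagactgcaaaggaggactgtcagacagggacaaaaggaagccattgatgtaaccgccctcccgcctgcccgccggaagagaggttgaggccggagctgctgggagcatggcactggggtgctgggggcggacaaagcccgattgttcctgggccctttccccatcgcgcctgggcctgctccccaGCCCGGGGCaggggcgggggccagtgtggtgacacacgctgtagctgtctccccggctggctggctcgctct
In the windows of S100A4, S100P, SPRR3 and IVL the TATA letters began 31, 28, 29 and 30 bases before the start. The AP-1 letters began 170 bases before the start of SPRR3 and 123 bases before that of IVL. SPRR1B held a pair of AP-1 matches, at 141 and 111 bases, with a KLF match between them. No match in these 6 windows overlapped a match to another motif.

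As a whole the 43 genes did not move one way, but a few stood well apart from mock. By limma, 0 of 43 passed the test at the main probe set (adjusted p under 0.05), where 0.403% of all genes did. With unadjusted p below 0.05 by limma, 11 of 43 were higher in knockdown cells (25.6%, against 9.76% of all genes) and 3 were lower (6.98%, against 7.25%). The groups did not overlap for 24 genes (55.8%), against 49.4% of all genes. In 15 both knockdown arrays lay above both mock arrays (25.8% of all genes did) and in 9 both lay below (23.6%). In all 26 changes were positive and 17 negative, with a median log2 change of 0.06 against -0.00427 over all genes, and 19 lay within 0.1 of 0. With 2 arrays against 2, an exact permutation test of a single gene cannot reach 0.05, so the calls rest on the variance that limma shares across probe sets. In RNA of whole cultures, fewer cells with a transcript and less of it in each cell cannot be told apart. The count past the test depended on the fit. It was 2 under quantile normalization (S100A4 and S100P), 3 with arrays centred on their medians or without dim probe sets (these and SPRR3), and 10 with a variance prior that follows the level.

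**Figure D1:**
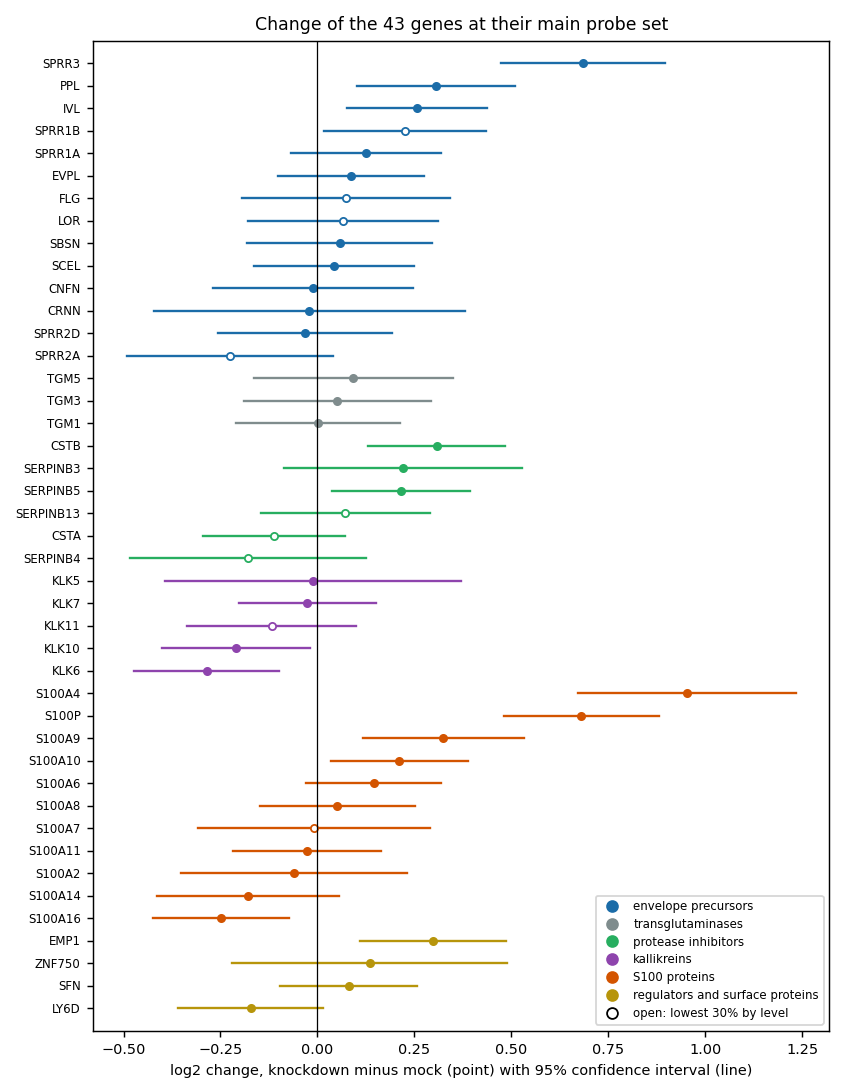
Log2 change of each of the 43 genes at its main probe set, knockdown minus mock (horizontal axis), with its 95% confidence interval from limma, coloured by role; open points are probe sets in the lowest 30% by level. S100A4, S100P and SPRR3 lie to the right of the rest, and the 5 kallikreins lie left of 0.

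Among the envelope precursors, SPRR3 stood out. It is a small proline-rich protein of internal squamous linings such as that of the oesophagus. Its log2 level was 6.66 and 6.72 after knockdown and 6.08 and 5.93 in mock cells. Both knockdown arrays were thus 0.577 or more above both mock arrays. SPRR3 was 1.61-fold higher (log2 change 0.68, SE 0.0853, 95% confidence interval 0.47 to 0.90), and its adjusted p in limma was 0.0561. Leaving out any 1 array kept its change between 0.61 and 0.76. It has 1 probe set, so no second measurement was at hand.

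PPL and IVL, which build the scaffold of the envelope, were higher by smaller amounts. PPL encodes periplakin, which ties the envelope to keratin filaments, and was at 10.73 and 10.79 in knockdown against 10.52 and 10.39 in mock arrays. All 4 probe sets of PPL were positive, from 0.20 to 0.33, and none passed (adjusted p = 0.180 at the main probe set, where the change was 0.31). IVL, involucrin, read 7.62 and 7.58 in knockdown and 7.37 and 7.32 in mock arrays, a change of 0.26 (SE 0.0728, adjusted p = 0.195). SPRR1B, another proline-rich protein, had a dim signal of 4.66 and 4.55 against 4.43 and 4.33, a change of 0.23 (SE 0.0836, adjusted p = 0.276). The groups of these 3 genes did not overlap, with both knockdown arrays on top.

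The proline-rich family was not uniform. SPRR1A had a change of 0.13 at its main probe set and of -0.18 at its second. SPRR2A, at -0.23, had the lowest value among the envelope precursors, with array levels of 4.13 and 4.03 in knockdown against 4.18 and 4.43 in mock cells. Its signal was in the lowest 30% of all probe sets. SPRR2D had a change of -0.03. Of the late envelope proteins, LOR (loricrin) had a change of 0.07, FLG (filaggrin) of 0.07 and SBSN (suprabasin) of 0.06, and their groups overlapped. CRNN (cornulin, a marker of the squamous oesophagus) and CNFN (cornifelin) lay at -0.02 and -0.01. EVPL, envoplakin, the partner of periplakin, had a change of 0.09 (adjusted p = 0.627). SCEL, sciellin, had 6 probe sets, 4 positive and 2 negative, between -0.18 and 0.11. In all, 10 of the 14 precursors were positive, where 48.5% of all genes were. With unadjusted p below 0.05 by limma 4 were higher (9.76% of all genes were) and 0 lower (7.25%).

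The 3 transglutaminases, which join the precursors, had overlapping groups at their main probe sets. TGM5 had the largest change, 0.09, from levels of 6.29 and 6.15 in knockdown and 6.02 and 6.24 in mock cells, and its groups overlapped (95% confidence interval -0.16 to 0.35, adjusted p = 0.714). TGM1 was at 0.00 and TGM3 at 0.05. The 2 other probe sets of TGM3, both dim, had changes of -0.23 and -0.26 (adjusted p = 0.281 and 0.246), and on each both knockdown arrays lay below both mock arrays.

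CSTB carried the clearest difference among the protease inhibitors. It encodes cystatin B, an inhibitor of lysosomal cysteine proteases that most cells make, and was bright, at 13.07 and 13.10 in knockdown and 12.79 and 12.76 in mock arrays. That is 1.24-fold higher (log2 change 0.31, SE 0.0712), and adjusted p was 0.145 in limma. Its 4 probe sets had changes from 0.30 to 0.33, and each separated the groups. SERPINB5 (maspin, a serpin of epithelia) was at 9.26 and 9.21 in knockdown and at 9.03 and 9.005 in mock cells, a change of 0.22 (SE 0.0717, adjusted p = 0.241). A second probe set of SERPINB5 had a change of 0.39 (adjusted p = 0.103), and the other, which is dim, one of 0.00.

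The inhibitors of squamous cells proper gave little signal. CSTA, cystatin A, lay between 3.08 and 3.23 in all arrays and had a change of -0.11. SERPINB3 and SERPINB4, the squamous cell carcinoma antigens, had changes of 0.22 and -0.18, and the groups overlapped for both. The other probe sets of SERPINB3, which are dim, had changes of -0.02 and -0.08, so its direction was not shared. SERPINB13 had a change of 0.07. CSTA, SERPINB4 and SERPINB13 were among 9 of the 43 genes whose main probe set was in the lowest 30% by level.

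All 5 kallikreins had negative changes, and 4 had both knockdown arrays below both mock arrays, as 23.6% of all genes did. For KLK7 the groups were only 0.00847 apart, and for KLK11, which is dim, 0.0181. By limma none of the 5 passed the test, and 2 had unadjusted p below 0.05, where 7.25% of all genes were lower by that measure. These secreted serine proteases cut the bonds between cells of the outer squamous layers. KLK6 was at 11.21 and 11.19 after knockdown and at 11.45 and 11.53 in mock cells, so the groups were 0.233 apart. Its log2 change was -0.29 (SE 0.0750, 95% confidence interval -0.47 to -0.10, adjusted p = 0.175). The other 3 probe sets of KLK6 gave larger differences, -0.41, -0.43 and -0.49, with adjusted p of 0.0955, 0.101 and 0.0754 in limma. KLK10 read 6.94 and 6.84 in knockdown and 7.10 and 7.09 in mock arrays, a change of -0.21 (SE 0.0766, adjusted p = 0.272). This probe set of KLK10 ends in _s_at, so its probes may match other sequences. The other one, which is dim, had a change of -0.16 with overlapping groups (adjusted p = 0.498 in limma). KLK11 had a change of -0.12 and KLK5 and KLK7, the main proteases of epidermal shedding, of -0.01 and -0.03.

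**Figure D2:**
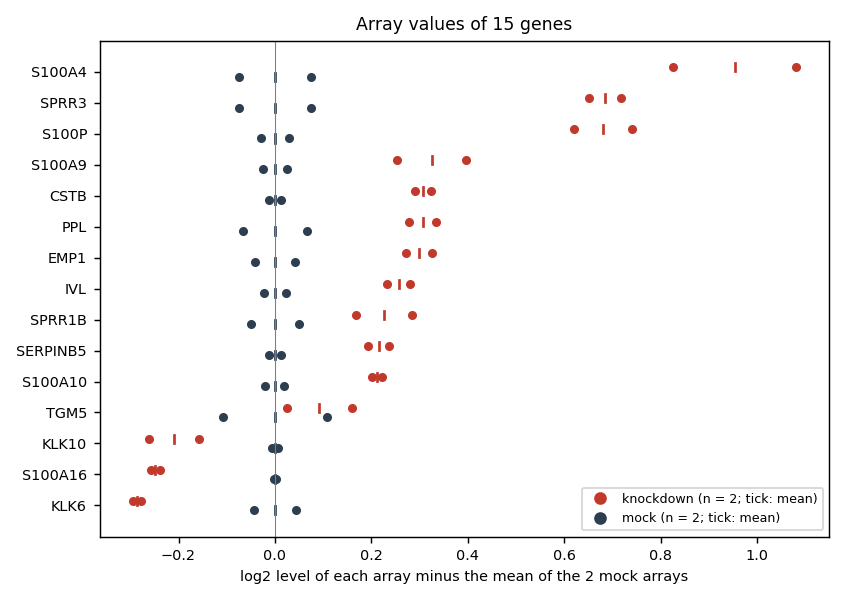
Log2 level of each array minus the mean of the 2 mock arrays (horizontal axis), for the 15 genes given in full; points are arrays and ticks are group means. The knockdown points lie clear of the mock points for all of these genes except TGM5, whose groups overlap. All but TGM5 were picked for the smallest unadjusted p by limma, so this separation follows largely from the choice. Over all genes the groups did not overlap for 49.4%.

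The S100 genes held the largest difference of the 43, that of S100A4. S100A4 binds non-muscle myosin and is known for its link to cell motility and metastasis. Its main probe set was at 8.18 and 8.44 in knockdown arrays and at 7.43 and 7.28 in mock arrays. The lower knockdown array was 0.751 above the higher mock array. S100A4 was thus 1.94-fold higher (log2 change 0.95, SE 0.113, 95% confidence interval 0.67 to 1.23), with an adjusted p in limma of 0.0525. Its other probe sets had changes of 1.10 and 1.13 and adjusted p of 0.0499 and 0.0502. The former was the 1 probe set of 82 of these genes that passed, against 0.316% of all probe sets. The main one ends in _x_at, so its probes may match other sequences, and the other 2 do not. With 1 array left out, the change at the main probe set ran from 0.83 to 1.08.

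S100P, a secreted S100 protein made by many adenocarcinomas, came next. It was at 8.06 and 8.18 in knockdown against 7.47 and 7.41 in mock arrays. The gap between the groups was 0.591, and the difference was 1.60-fold (log2 change 0.68, SE 0.0806, 95% confidence interval 0.48 to 0.88, adjusted p = 0.0525). S100P is encoded outside the cluster that holds the other S100 genes described here, and it has 1 probe set.

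S100A9 and S100A8 form calprotectin, a heterodimer of myeloid cells and stressed epithelia. S100A9 was at 4.80 and 4.94 in knockdown and at 4.57 and 4.52 in mock cells, a change of 0.32 (SE 0.0835, adjusted p = 0.169). Its signal was low, with the mock arrays on either side of 4.545, the level below which probe sets are dim. Its partner S100A8 had a change of 0.05, and its groups overlapped. The 7 myeloid markers PTPRC, CD14, ITGAM, LYZ, CSF1R, CD68 and FCGR3A had a mean log2 level of 4.52 and 4.53 in knockdown arrays and of 4.54 and 4.57 in mock arrays. Their summed linear signal was 219 and 226 against 230 and 245. PTPRC, which defines leukocytes, lay between 3.03 and 3.27, and 3 of the 7 markers were in the lowest 30% by level.

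Other S100 genes differed by less. S100A10 binds annexin A2 at the membrane and was at 12.84 and 12.86 in knockdown against 12.66 and 12.62 in mock arrays, a change of 0.21 (SE 0.0714, adjusted p = 0.245). S100A16 went the other way, with 11.39 and 11.37 in knockdown and 11.62 and 11.63 in mock arrays. Its change was -0.25 (SE 0.0704, adjusted p = 0.195), and its second probe set had -0.31. S100A14 had a change of -0.18, S100A6 (calcyclin) of 0.14, S100A2 of -0.06 and S100A11 of -0.03. S100A7, psoriasin, was dim and had a change of -0.01. Among the 11 S100 genes 6 changes were positive, where 48.5% of all genes were. With unadjusted p below 0.05 by limma 4 were higher (9.76% of all genes were) and 1 was lower (7.25%).

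Because the S100A genes lie side by side, their values can be read in genomic order. From S100A9 to S100A1 the RefSeq gene table places 14 S100A genes in a row. S100A4, at 0.95, sits between S100A5 at -0.12 and S100A3 at -0.08, and beyond these lie S100A6 at 0.14 and S100A2 at -0.06. After S100A4 the next highest values in the row were S100A9 at 0.32 and S100A13 at 0.18. In the kallikrein row, KLK6 at -0.29 lies between KLK5 at -0.01 and KLK7 at -0.03, and KLK9 and KLK10, side by side, had changes of -0.23 and -0.21. Of the kallikreins outside the set, KLK1 (0.08), KLK2 (0.07), KLK12 (0.05) and KLK8 (0.01) were positive at their main probe sets. KLK3, KLK4, KLK9, KLK13, KLK14 and KLK15 were negative there. In the SERPINB row no measured neighbour exceeded the 0.22 of SERPINB5 and SERPINB3.

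**Figure D3:**
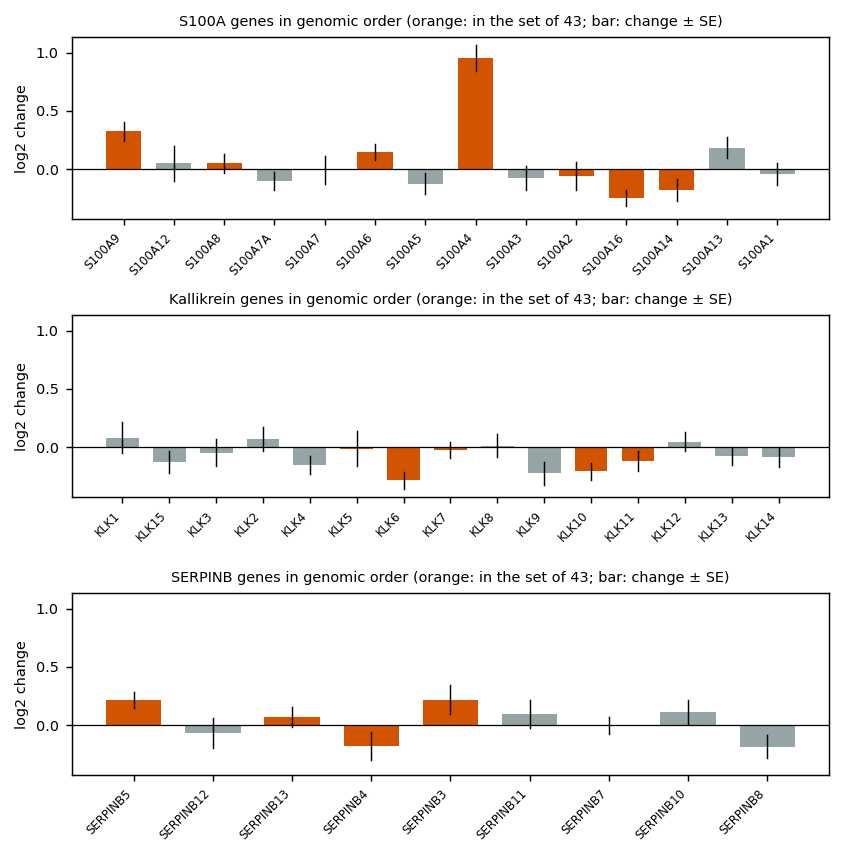
Log2 change (vertical axis, knockdown minus mock, bars with lines of ± SE) of S100A, kallikrein and SERPINB genes in the order in which RefSeq places them, orange for the genes of the set and grey for others. The bar of S100A4 at 0.95 stands among neighbours between -0.12 and 0.14.

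The remaining genes are surface proteins and regulators, of which EMP1 differed most at its main probe set. EMP1, a tetraspan membrane protein that epithelia make as they differentiate, was at 11.88 and 11.94 in knockdown arrays and at 11.65 and 11.57 in mock arrays. Its change was 0.30 (SE 0.0760, adjusted p = 0.168), and all 4 probe sets were positive, from 0.15 to 0.35. LY6D, a surface protein of squamous cells, had a change of -0.17, and SFN (stratifin), a phosphoprotein-binding adaptor of the cell cycle, of 0.08.

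ZNF750 is a transcription factor that promotes terminal epidermal differentiation, and its probe sets disagreed in size. It is singled out here after its values were seen. The main probe set read 5.02 and 5.43 in knockdown and 5.06 and 5.12 in mock arrays, a change of 0.13 with overlapping groups. Another read 4.79 and 4.59 against 4.04 and 3.65, a change of 0.84 (SE 0.149, adjusted p = 0.0962). The one with the largest difference read 4.17 and 4.92 against 3.57 and 3.44, a change of 1.04 (SE 0.236, adjusted p = 0.139), and the last had a change of 0.59. On these 3 both knockdown arrays were above both mock arrays, but their signals are dim and none passed the test. Whether they measure the same transcripts as the main probe set was not tested.

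Over the whole set, 20 genes had several probe sets, and for 16 of these all probe sets had the same sign, counting a probe set of SERPINB5 at 0.00 as positive. By probe set, 31 of 82 had unadjusted p below 0.05 by limma (37.8%, against 16.2% of all probe sets), 22 higher and 9 lower. Probe sets of 1 gene share transcripts and are not separate replicates.

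**Figure D4:**
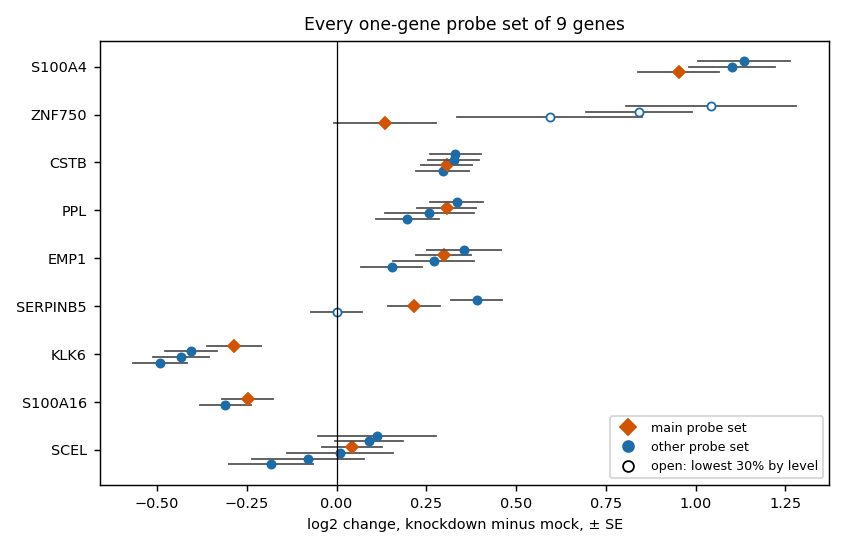
Log2 change ± SE (horizontal axis) at every probe set paired with 1 of 9 genes alone; diamonds are main probe sets, circles other probe sets, and open symbols lie in the lowest 30% by level. The 3 probe sets of S100A4 lie between 0.95 and 1.13 and the 4 of KLK6 between -0.49 and -0.29, while those of ZNF750 spread from 0.13 to 1.04.

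RefSeq promoter windows were matched for 35 of the 43 genes. AP-1 is a dimer of JUN and FOS proteins, and its sites are known in envelope gene promoters. AP-1 letters were in 15 of the 35 windows (42.9%), among them those of SPRR3, IVL, SPRR1A, SPRR1B, SPRR2A, LOR, FLG, CRNN, EMP1, SCEL and SERPINB5, and in 7.76% of 27305 RefSeq windows of the same length. Their changes were positive for 12 of these 15 genes (median 0.07) and for 9 of the 20 without such letters (median -0.01). S100A4, S100P and KLK6 were among those without. KLF letters were in 14 windows (40.0%, against 17.4% of all), with 7 positive and 7 negative changes, and 14 of 21 without were positive. The TATA letters were in 12 (34.3%, against 7.71%), 9 of them with a positive change, S100A4, S100P and SPRR3 included. Without TATA letters, 12 of 23 were positive. TFAP2 letters stood in 4 windows (11.4%, against 23.0%), 1 of them with a positive change, and 20 of 31 without were positive. GRHL letters stood in those of S100A9 and TGM5 (5.71%, against 1.73%), both with positive changes, and 19 of 33 without were positive. These matches describe the letters of the windows and were not tested against the changes.

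The other genes of the same processes were read from lists of genes outside the 43, and of 109 measured 2 passed the test, both higher, where 0.188% of all genes were called higher. The regulators of squamous transcription stood highest, where 16 of 21 measured were positive (median 0.20), against 48.5% of all genes. The lists were chosen with earlier results of these data known, so their counts are a description and no independent support. By limma 2 of these regulators were called higher and 0 lower. With unadjusted p below 0.05 by limma, 10 were higher (9.76% of all genes were) and 1, CEBPA, was lower (7.25%). The 5 negative changes were those of CEBPA (-0.22), FOXN1 (-0.17), OVOL1 (-0.15), GRHL2 (-0.07) and NOTCH3 (-0.03). Of 24 listed regulators 21 were measured, and TP63 was not among them. GRHL3, a grainyhead factor needed for the epidermal barrier, rose 1.61-fold, from 8.82 and 8.74 in mock to 9.47 and 9.45 in knockdown arrays (log2 change 0.68, SE 0.0747, adjusted p = 0.0499). TFAP2A, the AP-2 alpha factor of surface ectoderm, rose 1.71-fold, from 8.98 and 8.84 to 9.66 and 9.70 (log2 change 0.77, SE 0.0826, adjusted p = 0.0499). Its called probe set ends in _s_at, and the brightest other one had a change of 0.64 (adjusted p = 0.0616). The other 5 had changes of 0.36, 0.27, 0.12, 0.00 and -0.06, 3 of them dim, and the median probe set (0.27, adjusted p = 0.279) did not pass. KLF4, which drives barrier formation, read 10.97 and 11.05 against 10.54 and 10.48, a change of 0.50 (adjusted p = 0.0753). The GRHL3 and TFAP2A calls lie just under the threshold. With 1 array left out the changes ran from 0.64 to 0.73 for GRHL3 and from 0.70 to 0.84 for TFAP2A, in fits that called no probe set at all. With unshared probe sets the changes were 0.68 and 0.64, and neither passed (adjusted p = 0.0552 and 0.0704).

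Of the lipid envelope enzymes 10 of 14 were positive (median 0.08), against 48.5% of all genes. By limma 0 passed. With unadjusted p below 0.05, 2 were higher (9.76% of all genes were) and 1 was lower (7.25%). SULT2B1, the cholesterol sulfotransferase of the epidermis, had a change of 0.60 (adjusted p = 0.0736) and UGCG, which makes glucosylceramide, of 0.46 (0.0994). The lipoxygenase ALOXE3 had a change of -0.37 (0.139) at its main probe set. Its other probe sets had changes of -0.22, -0.11 (dim) and 0.14 (dim), so its direction was not shared. Among other serpins and transglutaminases the median was -0.00256 over 11. By limma 0 passed, with 3 higher at unadjusted p below 0.05 (9.76% of all genes were). SERPINB1, an inhibitor of neutrophil proteases, had a change of 0.41, SERPINB9, the granzyme B inhibitor, of 0.34, and tissue transglutaminase TGM2 of 0.23.

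The remaining lists lay close to 0. Of other envelope and granular layer genes 11 of 30 were positive (median -0.05), against 48.5% of all genes. By limma 0 passed, with 1 higher (9.76% of all genes were) and 1 lower (7.25%) at unadjusted p below 0.05. PADI1, which deiminates envelope proteins, had a change of 0.39 (adjusted p = 0.114) at its main probe set and of 0.19 and -0.09, with overlapping groups, at its others. TCHHL1 had a change of -0.19 and LCE1C of -0.17. For other kallikreins and their inhibitors the median was -0.05 over 17. By limma 0 passed, with 1 higher at unadjusted p below 0.05 (9.76% of all genes were). That gene was PRSS8, prostasin, a membrane-bound protease of epithelial barriers, with 9.63 and 9.66 against 9.14 and 9.13 (log2 change 0.51, adjusted p = 0.0643). KLK9 had a change of -0.23, which ran from -0.31 to -0.14 with 1 array left out. KLK4 had a change of -0.15 at its main probe set and of 0.10 and 0.00 at its others, so its direction was not shared. For other S100 genes and their partners the median was -0.04 over 16, and by limma 0 passed and 0 had unadjusted p below 0.05. S100A13 had a change of 0.18, from 0.09 to 0.27 with 1 array left out, and annexin A1 (ANXA1) one of 0.12. The S100 receptor AGER had a change of -0.30 with overlapping groups (adjusted p = 0.468). It ran from -0.52 without knockdown replicate 1 to -0.08 without knockdown replicate 2, and was -0.14 at the median probe set.

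**Figure D5:**
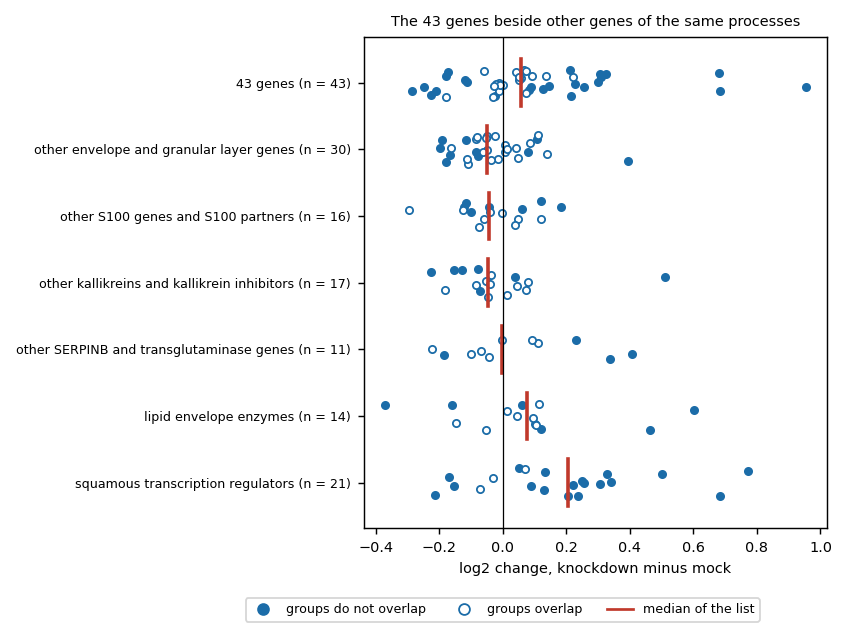
Log2 change (horizontal axis, knockdown minus mock) of the 43 genes and of 6 lists of other genes of the same processes; each point is a gene, filled where the groups do not overlap, and red lines are list medians. The medians are 0.06 for the 43 genes and 0.20 for the squamous transcription regulators, and between -0.05 and 0.08 for the other lists.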

How the data were processed

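OE33 cells were measured on 4 arrays, 2 per group, with groups taken from the sample titles. The authors deposited log2 expression values per probe set. RMA and Partek are named, per the submitters' processing notes, without version or role, and the log2 scale was taken from the range of the values. RMA usually scales arrays to a common distribution, which would hide a change in mRNA content of the cells. The medians of the deposited arrays still differed slightly, from 5.89 to 5.93. Of 49372 probe sets, 79 controls were left out and 49293 tested. In the platform annotation 44988 had a single gene, 1832 had more than 1 and 2473 had no gene, and genes were named from single-gene probe sets. LOR was matched through its current symbol LORICRIN. Array files, scan dates and the build behind the probe sets were not used here.

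Knockdown was compared with mock by limma 3.58.1 in R 4.3.3 (lmFit, eBayes, two-sided, no block), with Benjamini-Hochberg adjustment over all tested probe sets and a threshold of 0.05. Adjusted p-values come from that fit, with 2 residual and 3.62 prior degrees of freedom, unless an alternative is named beside them. The procedure was tested on simulated data. Dim means below a log2 level of 4.545, the lowest 30% of probe sets by mean.

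Given in full were genes past the test, the 14 with the smallest unadjusted p, and the largest change in each role group, and of each other list those past the test and up to 3 with the smallest p. Members, lists and motifs were chosen with earlier results of these data known. Motif letters were searched in RefSeq windows by exact match. Alternatives were a replicate block, other scaling, a filter on dim probe sets, unshared probe sets, another probe set per gene, another variance prior and each array left out.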

Additional observations from a re-analysis of the deposited data

How the results depend on the processing

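The median of the 43 genes stayed positive under every alternative tried, and SPRR3, S100P and S100A4 kept their sign in all. The number of the 43 past the test was 0 with a replicate block, with unshared probe sets and with any array left out, 1 with the median probe set of a gene, 2 with quantile normalization, 3 with arrays centred on their medians or without dim probe sets, and 10 with a trended and robust variance prior. For the other pathway genes it was 0 with a replicate block, crossed or not, with unshared probe sets and with any array left out, 1 with the median probe set, 5 with centred arrays or without dim probe sets, and 15 with the trended prior. The median of the 43 was 0.0096 with the median probe set and 0.021 to 0.12 with 1 array left out. Under quantile normalization 5 of the 43 were lower with unadjusted p below 0.05. With 1 array left out, 6 to 8 were higher and 0 to 4 lower by that measure. Both lowest counts came without mock replicate 2. Without knockdown replicate 2 there were 7 higher and 1 lower. ARID1A kept a log2 change between -1.80 and -1.75 with 1 array left out, but with fewer degrees of freedom it did not pass (adjusted p from 0.244 to 0.521). It did not pass with the replicate block either (-1.78, adjusted p = 0.217), nor (-1.78) with the crossed pairing, chosen after seeing the data. Same-numbered arrays deviated with r = -0.20 (Pearson, across probe sets), and nothing in the labels pairs the numbers. No probe set passed in those 6 fits, so they do not tell how stable single calls are. With the block, unadjusted p was below 0.05 for 8 higher and 2 lower of the 43, and with the crossed pairing for 10 and 4. Among single genes KLK4 turned to 0.0015 at its unshared probe set, also its median one, and TGM5 ran from -0.016 without mock replicate 1 to 0.20 without mock replicate 2. The number of probe sets past the test over the whole array was 156, and 671 with centred arrays, 297 with quantile normalization, 685 without dim ones, 23 with unshared ones and 3249 with the trended prior. Signal limits 9 of the 43, whose main probe sets are dim.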
